A study of Mus musculus with 6 samples.

Results

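Immediate early transcription factors are the first genes that a cell transcribes after a stimulus, from factors already present and without new protein synthesis. The 10 described here were taken by name from 4 families among the 55487 genes of the count table: *Fos*, *Fosb* and *Fosl2* of the FOS family, *Jun*, *Junb* and *Jund* of the JUN family, *Egr1* and *Egr3* of the early growth response zinc finger factors, and *Nr4a1* and *Nr4a2* of the orphan nuclear receptors. All 10 were in the table and all 10 passed the filter on low counts that left 17175 genes to test. RNA was sequenced from cartilaginous tissue of the knee joint of postnatal day 6 (P6) mice, in 3 libraries of mice with a conditional knockout of *Hbb*, the haemoglobin β gene, in chondrocytes (*Hbb*-cKO) and 3 libraries labelled wild type (WT). No other treatment is given in the labels of either group. The study bred floxed *Hbb* mice both to a tamoxifen-dependent *Col2a1*-CreERT2 line, which acts in chondrocytes, and to *Prx1*-Cre, which acts in limb mesenchyme, and it uses the name *Hbb*-cKO for the *Col2a1*-CreERT2 cross. The labels of these libraries name a knockout in chondrocytes but no Cre line, and they do not say whether the WT mice carried a floxed allele or Cre, or how many mice went into each library.

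FOS and JUN proteins pair through leucine zippers to form AP-1, which binds its target genes as a dimer, whereas EGR and NR4A proteins bind DNA on their own or with other partners. Signals of growth factors, mechanical load, calcium and stress reach these genes through the MAP kinases, through serum response factor with its ETS partners, and through CREB, and the transcripts are then lost quickly, in part through AU-rich elements in the 3′ untranslated region. In cartilage, AP-1 proteins are known as regulators of chondrocyte proliferation and hypertrophy and of matrix metalloproteinase genes.

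Total counts were 17405688 to 20969914 in *Hbb*-cKO and 16544800 to 17475496 in WT. The summed level of *Hbb-bs* and *Hbb-bt*, the adult β-globin genes, as read counts scaled to TMM-normalized library size (CPM) was 4195, 5444 and 5014 in *Hbb*-cKO replicates 1, 2 and 3, against 16811, 12449 and 6912 in WT replicates 1, 2 and 3, lower in each library labelled *Hbb*-cKO but not at 0. Of 8 erythroid markers, which include both *Hbb* genes, 5 were lower at an unadjusted edgeR p under 0.05, compared with 5.22% of all tested genes. None of the 8 passed over all genes. *Hbb-bs* and *Hbb-bt* had log2 fold changes of -1.28 and -1.32, beside -1.31 and -1.43 for *Hba-a1* and *Hba-a2*, the untargeted α-globin genes, and -1.60 for *Alas2*, the haem synthesis enzyme of red cells. The part of red cell content in the *Hbb* difference was not tested. The 10 cartilage markers were detected in every library, with a summed level of 16670, 55176 and 39588 CPM in *Hbb*-cKO, against 37517, 40813 and 32076 CPM in WT. The 10 skeletal muscle markers summed to 23226 to 32410 CPM in *Hbb*-cKO and 28803 to 46942 CPM in WT, so the dissected tissue held muscle as well. The libraries also differed in sex-linked transcripts: *Xist* and Y-linked transcripts were both present in *Hbb*-cKO replicates 1 and 3 and in WT replicate 3. In *Hbb*-cKO replicate 2, Y-linked genes had 146 CPM and *Xist* 0.301 CPM, whereas Y-linked genes had no count in WT replicates 1 and 2. Thus every *Hbb*-cKO library held Y-linked transcripts, but in WT only replicate 3 did. The 10 neutrophil lineage markers summed to 124, 26.7 and 103 CPM in *Hbb*-cKO, against 37.9, 26.1 and 17.4 CPM in WT. Of these markers 8 were tested, all with positive log2 fold changes, and the defining markers *Ly6g* and *Cxcr2* were too low to test in both groups. In such bulk tissue, fewer cells of a type and less RNA per cell cannot be told apart.

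Promoter sequences of 5 factors are shown because they share a short motif. The windows are the 250 bases before the transcription start in RefSeq (GRCm38.p6), and the motif counts cover 8 of the 10 factors. *Egr3* had no entry in the promoter set used, and the *Egr1* window is not reported here. Capitals mark TGACG, the core of the cAMP response element bound by CREB, or its reverse complement CGTCA, and bases are counted back from the start, with -1 next to it. Each sequence reads 5′ to 3′ on the strand of its gene, and the *Nr4a1* window lies before the start of a transcript that begins within the locus.
*Fos* (chr12:85473640-85473889, plus strand): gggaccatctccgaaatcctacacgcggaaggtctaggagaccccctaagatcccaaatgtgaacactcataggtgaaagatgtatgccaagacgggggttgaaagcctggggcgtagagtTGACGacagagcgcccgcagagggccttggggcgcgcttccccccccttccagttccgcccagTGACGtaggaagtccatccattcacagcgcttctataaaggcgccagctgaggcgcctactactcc
*Fosb* (chr7:19310046-19310295, minus strand): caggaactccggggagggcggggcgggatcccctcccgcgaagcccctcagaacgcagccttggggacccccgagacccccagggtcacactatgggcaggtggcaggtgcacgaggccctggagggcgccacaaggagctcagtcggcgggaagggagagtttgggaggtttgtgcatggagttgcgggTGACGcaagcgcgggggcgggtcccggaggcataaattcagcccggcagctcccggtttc
*Junb* (chr8:84978749-84978998, minus strand): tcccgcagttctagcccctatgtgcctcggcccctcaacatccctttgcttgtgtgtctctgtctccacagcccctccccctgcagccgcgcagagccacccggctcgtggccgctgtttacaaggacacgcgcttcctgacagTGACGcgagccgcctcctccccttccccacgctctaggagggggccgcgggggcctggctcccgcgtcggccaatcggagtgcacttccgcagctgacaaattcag
*Nr4a1* (chr15:101266596-101266845, plus strand): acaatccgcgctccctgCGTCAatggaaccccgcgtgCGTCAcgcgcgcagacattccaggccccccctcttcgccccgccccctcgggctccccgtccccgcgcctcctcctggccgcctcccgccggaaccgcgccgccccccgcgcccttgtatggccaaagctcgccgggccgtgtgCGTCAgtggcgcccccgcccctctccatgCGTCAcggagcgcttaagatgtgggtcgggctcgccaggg
*Nr4a2* (chr2:57124004-57124253, minus strand): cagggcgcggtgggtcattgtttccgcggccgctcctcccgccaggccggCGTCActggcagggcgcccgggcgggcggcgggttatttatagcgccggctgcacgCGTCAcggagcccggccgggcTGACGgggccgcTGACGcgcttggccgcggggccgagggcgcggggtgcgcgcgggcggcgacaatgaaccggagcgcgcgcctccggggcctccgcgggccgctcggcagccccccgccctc

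TGACG was searched on both strands. It was found 2 times in the *Fos* window, with first bases at -129 and -66, 1 time in that of *Fosb* at -60 and 1 time in that of *Junb* at -106. The *Nr4a1* window held it 4 times, at -233, -213, -69 and -40, and the *Nr4a2* window 4 times, at -200, -144, -123 and -111. Thus 5 of the 8 windows held the motif, against 17.8% of 32851 RefSeq promoter windows of the same length. The other 3 windows, of *Jun*, *Fosl2* and *Jund*, did not hold these letters, and the RefSeq starts of *Jund* and *Fosl2* lay 1210 and 299 bases from the nearest GENCODE start. The sequence TATAAA was found in *Fos* at -33 and in *Nr4a2* at -164, and in 12.4% of all windows. The full element TGACGTCA, the AP-1 site TGACTCA, the EGR site GCGTGGGCG and the CArG box of serum response factor were found in none of the 8 windows, and in 1.55%, 4.46%, 0.536% and 1.47% of all windows. TGACG lies within TGACGTCA, and no match or lack of one shows whether a factor was bound. These counts leave out *Egr1*, *Egr3* and all bases outside the windows. A window without a motif therefore does not show that the gene lacks it.

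The 3′ untranslated regions of the factors held copies of ATTTA, the core letters of AU-rich elements. The number of copies was 4 in *Fos* and *Jun*, 8 in *Fosl2*, 7 in *Egr3*, 3 in *Nr4a1* and *Nr4a2*, 2 in *Junb* and *Egr1*, and 1 in *Fosb* and *Jund*. At least 3 copies were present in 6 of the 10 factors, against 33.9% of the 14108 tested genes with a coding transcript in GENCODE M21. Per kilobase, 9 of the 10 factors lay above the median of those genes (1.18 copies), with *Fosb* below it at 0.466. The stretch of *Jun* that held the most copies (bases 1031 to 1060) had 2 and is not printed. The stretches of 30 bases that held the most copies, also 2 each, are shown for *Fos*, *Fosl2* and *Nr4a1*, with ATTTA in capitals.
*Fos* (bases 642 to 671 of the 3′ region): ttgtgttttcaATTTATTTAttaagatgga
*Fosl2* (bases 3675 to 3704): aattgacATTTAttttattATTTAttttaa
*Nr4a1* (bases 449 to 478): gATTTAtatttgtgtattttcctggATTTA

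To determine how the factors differed between *Hbb*-cKO and WT cartilage, all 17175 genes were compared with edgeR's quasi-likelihood test. Of the 10 factors, *Egr1* rose, and the other 9 did not pass an adjusted p of 0.05. By this rule 0.105% of all tested genes were called in either direction and 0.0349% were called higher. Log2 fold changes (log2 FC, *Hbb*-cKO over WT) of the 10 factors ran from -0.05 in *Jund* to 0.97 in *Egr1*, and 9 of them were positive, compared with 47.5% of all tested genes. Their median was 0.37, beside -0.01 over all tested genes, and 9.08% of all tested genes had a value at or above that median. At an unadjusted p under 0.05, 6 factors were higher (*Egr1*, *Egr3*, *Fosb*, *Nr4a1*, *Fos* and *Junb*), compared with 4.89% of all genes. In 7 factors, these 6 and *Jun*, every *Hbb*-cKO library was above every WT library, which was the case for 8.7% of all genes. The count of 6 ran from 4 to 7 when single libraries were left out, where 2.89% to 6.77% of all genes met the same p rule. It was 3 with Y-linked expression as a covariate, where 7.22% of all genes met the rule. With the neutrophil score as a covariate it was 4, where 2.64% of all genes did. DESeq2 called *Egr1*, *Egr3* and *Fosb* higher, compared with 0.746% of all genes. The factors were chosen with earlier results of these data known, so these comparisons with all genes are descriptive.

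**Figure D1:**
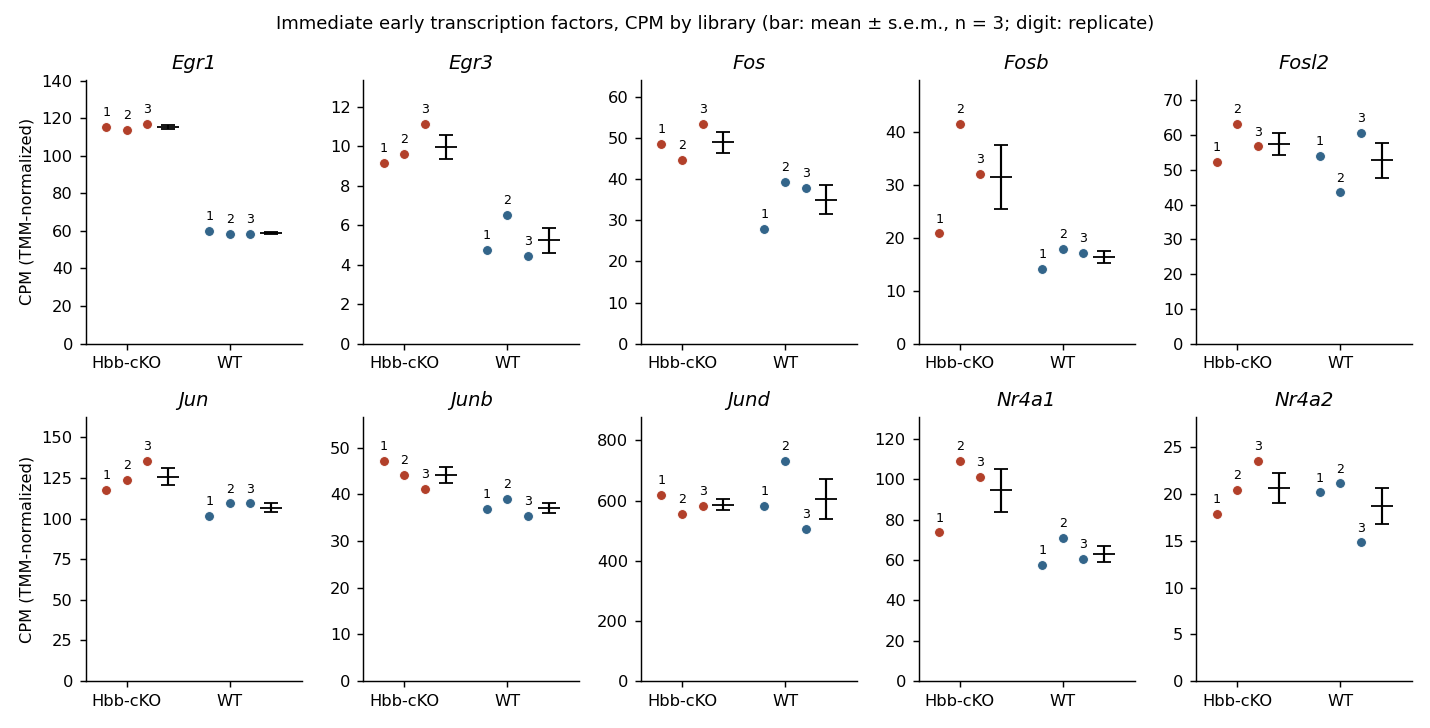
CPM of each factor in each library, with *Hbb*-cKO on the left and WT on the right of each panel. Points are libraries with their replicate numbers, and bars are mean ± s.e.m. of 3 libraries. In *Egr1* the 3 *Hbb*-cKO libraries lay at 114 to 117 CPM, all above the WT libraries at 58.3 to 60.0 CPM, whereas in *Fosl2*, *Jund* and *Nr4a2* the groups overlapped.

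**Figure D2:**
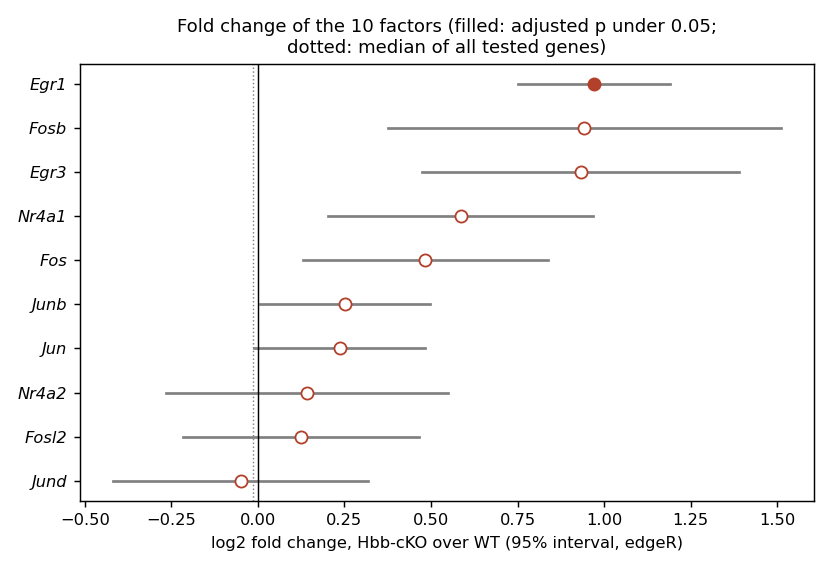
Log2 fold change of each factor, *Hbb*-cKO over WT, with its 95% interval from edgeR's quasi-likelihood fit. The filled point, *Egr1*, had an adjusted p under 0.05, and the dotted line is the median of all tested genes (-0.01).

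*Egr1*, a zinc finger factor induced by growth factors and mechanical load, lies at 34859823 to 34864984 on the plus strand of chromosome 18 (GRCm38). It had 115, 114 and 117 CPM in *Hbb*-cKO replicates 1, 2 and 3, against 60.0, 58.3 and 58.3 CPM in WT replicates 1, 2 and 3. The libraries of each group lay close together, with a coefficient of variation of 1.43% in *Hbb*-cKO and 1.66% in WT. The counting error of the 3 WT libraries summed was 1.83%, and that of a single library is larger. The WT spread was thus smaller than counting alone would give for a single library. The lowest *Hbb*-cKO library was 1.90 times the highest WT library. *Egr1* averaged 115 ± 0.955 CPM over *Hbb*-cKO libraries, against 58.9 ± 0.563 CPM over WT libraries (mean ± s.e.m., n = 3 each), which corresponds to a log2 FC of 0.97 (95% interval 0.75 to 1.19, edgeR adjusted p = 0.0191). *Egr1* ranked 7 of all tested genes by p. Over 16 alternative settings the log2 FC stayed between 0.95 and 0.99, but the gene passed the threshold in 10. The 6 settings in which it did not were the fits without *Hbb*-cKO replicate 1 (edgeR adjusted p = 0.0578), *Hbb*-cKO replicate 2 (0.0685), *Hbb*-cKO replicate 3 (0.144) or WT replicate 1 (0.162), and those with the neutrophil score (0.271, log2 FC 0.95) or the replicate number (0.170) in the model.

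*Egr3*, a factor of the same family that acts in lymphocytes and muscle spindles, was the least abundant of the 10, by CPM and per exon length. It lies on chromosome 14 (70077203 to 70082614, plus strand, GRCm38) and had 161, 192 and 236 counts in *Hbb*-cKO, against 79, 107 and 77 counts in WT. This gave 9.15, 9.62 and 11.1 CPM in *Hbb*-cKO and 4.73, 6.51 and 4.44 CPM in WT, and the groups did not overlap. The log2 FC was 0.93, close to that of *Egr1*, but with a standard error of 0.20 and an adjusted p of 0.180 in edgeR. DESeq2 gave an adjusted p of 0.0111.

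*Fosb* encodes the FOS protein of which a truncated, long-lived form is known from brain. It lies on chromosome 7 (19302696 to 19310051, minus strand, GRCm38) and had 20.8, 41.5 and 32.1 CPM in *Hbb*-cKO replicates 1, 2 and 3, against 14.1, 17.9 and 17.2 CPM in WT. The groups did not overlap, but the *Hbb*-cKO libraries spread 1.998-fold from lowest to highest, the widest within-group range of any of the 10 factors, and their coefficient of variation was 33.0%. *Fosb* averaged 31.5 ± 5.997 CPM over *Hbb*-cKO libraries, against 16.4 ± 1.17 CPM over WT libraries (s.e.m., n = 3 each), with a log2 FC of 0.94 ± 0.25 (SE, edgeR adjusted p = 0.276, DESeq2 adjusted p = 0.0305). The 3 *Hbb*-cKO libraries had the same order for *Fosb* as for the summed cartilage markers (16670, 55176 and 39588 CPM in replicates 1, 2 and 3) and the reverse order of the summed neutrophil markers (124, 26.7 and 103 CPM). Neither order held in WT, where the cartilage markers summed to 37517, 40813 and 32076 CPM and the neutrophil markers to 37.9, 26.1 and 17.4 CPM. In the edgeR fit that held the neutrophil score, the *Fosb* log2 FC was 1.38 (adjusted p = 0.313). In the fit that held the skeletal muscle markers it was 0.84 (edgeR adjusted p = 0.414). The cartilage markers were not put in a model, and their part in the *Fosb* values was not tested.

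*Fos*, the founding member of its family, lies on chromosome 12 (85473890 to 85477273, plus strand, GRCm38). It had 48.7, 44.7 and 53.6 CPM in *Hbb*-cKO, against 27.9, 39.3 and 37.9 CPM in WT. WT replicate 1 was the low library, and the lowest *Hbb*-cKO library was 1.14 times the highest WT library. The log2 FC was 0.48 ± 0.15 (SE, edgeR adjusted p = 0.333), and it was 0.35 without WT replicate 1 and 0.59 without WT replicate 2. *Fosl2*, also named FRA2, a FOS protein of bone and cartilage without the transactivation domain of FOS, had 52.2, 63.3 and 56.8 CPM in *Hbb*-cKO, against 54.0, 43.5 and 60.6 CPM in WT. The groups overlapped, and the log2 FC was 0.12 (95% interval -0.22 to 0.46, edgeR adjusted p = 0.841). *Fosl2* lies on chromosome 5 (32135801 to 32157842, plus strand, GRCm38).

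The JUN factors had log2 FC between -0.05 and 0.25. *Jun*, the AP-1 protein that is phosphorylated by the JNK kinases, lies on chromosome 4 (95049034 to 95052222, minus strand, GRCm38) and had 118, 124 and 135 CPM in *Hbb*-cKO, against 102, 109 and 109 CPM in WT. *Junb*, which can oppose *Jun* in the control of cell division, lies on chromosome 8 (84976910 to 84978718, minus strand, GRCm38) and had 47.2, 44.3 and 41.2 CPM in *Hbb*-cKO, against 36.9, 39.1 and 35.5 CPM in WT. In both genes the groups lay next to each other without overlap, by a factor of 1.08 in *Jun* and 1.05 in *Junb* between the nearest libraries. Their log2 FC were 0.24 and 0.25 (standard error 0.11 for each, adjusted p = 0.509 for *Jun* and 0.490 for *Junb* in edgeR). *Jund*, which is transcribed in most resting cells, lies on chromosome 8 as well (70698949 to 70700616, plus strand, GRCm38) and had 618, 556 and 583 CPM in *Hbb*-cKO, against 581, 731 and 506 CPM in WT. WT replicates 2 and 3 enclosed all 3 *Hbb*-cKO libraries, and the log2 FC was -0.05 (95% interval -0.42 to 0.32, edgeR adjusted p = 0.952). Each JUN gene overlaps a gene on the other strand, and with the strand setting of the counting unstated in the labels and methods, reads of the pair may not be separated. The partners of *Jun* (*Junos*) and *Jund* (*Gm11175*) had 8 to 25 and 9 to 23 counts, whereas *Prdx2*, which shares 173 exonic bases with the GENCODE model of *Junb*, had 3035 to 4036 counts.

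*Nr4a1*, also known as NUR77, a nuclear receptor without a known ligand, lies on chromosome 15 (101254269 to 101274795, plus strand, GRCm38). It had 73.7, 109 and 101 CPM in *Hbb*-cKO, against 57.7, 71.0 and 60.5 CPM in WT. *Hbb*-cKO replicate 1 lay just above the highest WT library, by a factor of 1.04, and the other 2 *Hbb*-cKO libraries lay well above it. The log2 FC was 0.59 ± 0.17 (SE, edgeR adjusted p = 0.291). *Nr4a2*, or NURR1, known for its role in dopamine neurons, lies on chromosome 2 (57106830 to 57124003, minus strand, GRCm38) and had 17.9, 20.5 and 23.5 CPM in *Hbb*-cKO, against 20.2, 21.2 and 14.8 CPM in WT. The groups overlapped, with a log2 FC of 0.14 (95% interval -0.27 to 0.55, edgeR adjusted p = 0.847).

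Each library was then compared with the mean of its own group to see whether the factors moved together among replicates. WT replicate 2 was the highest WT library for 8 of the 10 factors. *Hbb*-cKO replicate 1, the library with the lowest summed cartilage markers, was the lowest of its group for 6 factors (*Fosb*, *Fosl2*, *Jun*, *Egr3*, *Nr4a1* and *Nr4a2*), and *Hbb*-cKO replicate 3 was the highest for 5. The mean log2 deviation over the 10 factors was -0.12, 0.05 and 0.07 in *Hbb*-cKO replicates 1, 2 and 3, against -0.07, 0.11 and -0.04 in the WT replicates. The pairs with the most similar profiles over the 6 libraries, by the root mean square difference of centred log2 CPM, were *Jun* with *Junb* (0.13), *Fosl2* with *Jun* (0.18) and *Fos* with *Jun* (0.19), and those of *Junb* with *Jund*, *Jund* with *Nr4a2*, *Egr1* with *Egr3* and *Jun* with *Nr4a2* followed (0.19 each). *Fosb* was nearest to *Nr4a1* (0.21), and since all factors were read from the same libraries these values are descriptive. The profiles were centred over all 6 libraries and so hold the difference between groups, and a small value does not show a shared order among replicates. In *Hbb*-cKO replicates 1, 2 and 3, *Jun* rose (118, 124 and 135 CPM) and *Junb* fell (47.2, 44.3 and 41.2 CPM).

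**Figure D3:**
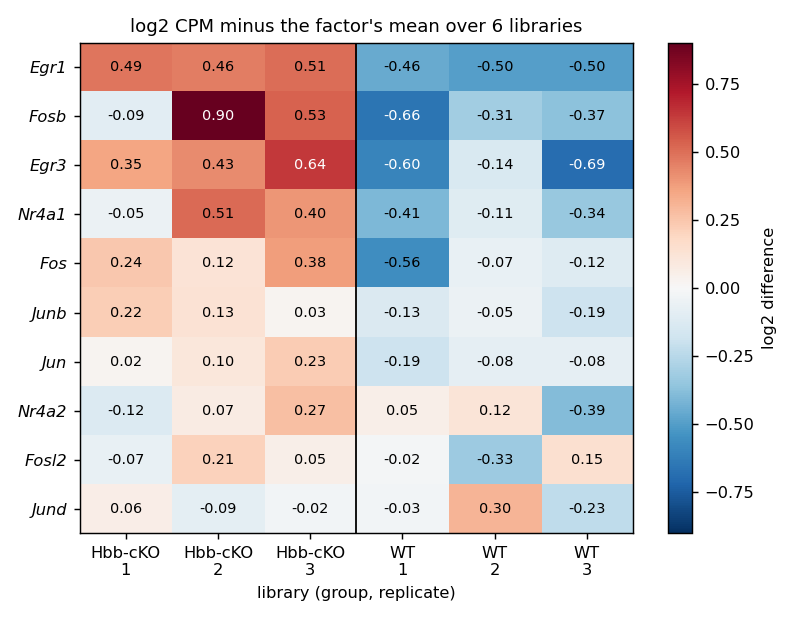
Log2 CPM of each factor (rows) in each library (columns) minus the mean of that factor over the 6 libraries, with *Hbb*-cKO libraries left of the line and WT libraries right of it. *Egr1* was even within each group, and *Fosb* ran from -0.09 in *Hbb*-cKO replicate 1 to 0.90 in *Hbb*-cKO replicate 2.

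Levels were set side by side after division by exon length, as CPM per kilobase of merged exons. *Jund* was the most abundant factor, at 351 ± 10.7 CPM per kilobase in *Hbb*-cKO and 363 ± 39.7 in WT (n = 3 each), and *Jun* came next, at 39.4 ± 1.63 in *Hbb*-cKO and 33.5 ± 0.805 in WT. *Jund* made up 85.2 to 86.6% of the JUN family level per length in *Hbb*-cKO and 85.9 to 89.5% in WT. With these lengths *Nr4a1* was the third in both groups, at 27.0 ± 3.05 CPM per kilobase in *Hbb*-cKO and 17.97 ± 1.15 in WT. *Egr1* was the fourth in *Hbb*-cKO, at 25.7 ± 0.213 CPM per kilobase, and the sixth in WT, at 13.1 ± 0.125. In *Hbb*-cKO its libraries overlapped those of *Nr4a1* and lay above those of *Fos* (20.8 ± 1.09) and *Junb* (19.2 ± 0.750), which overlapped each other. In WT the libraries of *Nr4a1*, *Junb* (16.1 ± 0.458), *Fos* (14.9 ± 1.52) and *Egr1* each overlapped those of the next in order. *Fosl2*, *Nr4a2*, *Fosb* and *Egr3* followed in this order in both groups, with *Egr3* at 2.26 ± 0.136 in *Hbb*-cKO and 1.19 ± 0.146 in WT. The length of *Junb* is that of the GENCODE model (2301 bases), which is longer than its locus in the count table. A shorter length would raise its level per kilobase. The order of *Junb* relative to *Nr4a1*, *Egr1* and *Fos*, and its separation from *Egr1* in *Hbb*-cKO, therefore depend on this choice.

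Ratios within a library do not depend on how libraries are scaled, and 4 of them were compared between the groups by exact two-sided permutation tests, for which the smallest possible p with 3 against 3 libraries is 0.1. The number of *Egr1* counts per *Fos* count was 2.37, 2.54 and 2.19 in *Hbb*-cKO, against 2.15, 1.48 and 1.54 in WT, and the groups did not overlap. The difference of the log2 ratios was 0.47 (standard error 0.18, exact permutation p = 0.1, Benjamini-Hochberg adjusted p = 0.2 over the 4 ratios). The *Nr4a1* to *Nr4a2* ratio was 4.12, 5.32 and 4.29 in *Hbb*-cKO, against 2.86, 3.36 and 4.08 in WT, also without overlap (log2 difference 0.42, standard error 0.19, exact permutation p = 0.1, adjusted p = 0.2). In the *Egr1* to *Egr3* ratio the groups overlapped, with 12.6, 11.8 and 10.5 in *Hbb*-cKO and 12.7, 8.96 and 13.1 in WT (log2 difference 0.02, standard error 0.19, exact permutation p = 1). The summed FOS to JUN family counts gave 0.156, 0.206 and 0.187 in *Hbb*-cKO, against 0.133, 0.114 and 0.178 in WT, and the groups overlapped (log2 difference 0.38, standard error 0.22, exact permutation p = 0.2, adjusted p = 0.267). None of the 4 could reach a p under 0.05 in this design, and so it was not shown that the factors of a pair differed in their response.

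**Figure D4:**
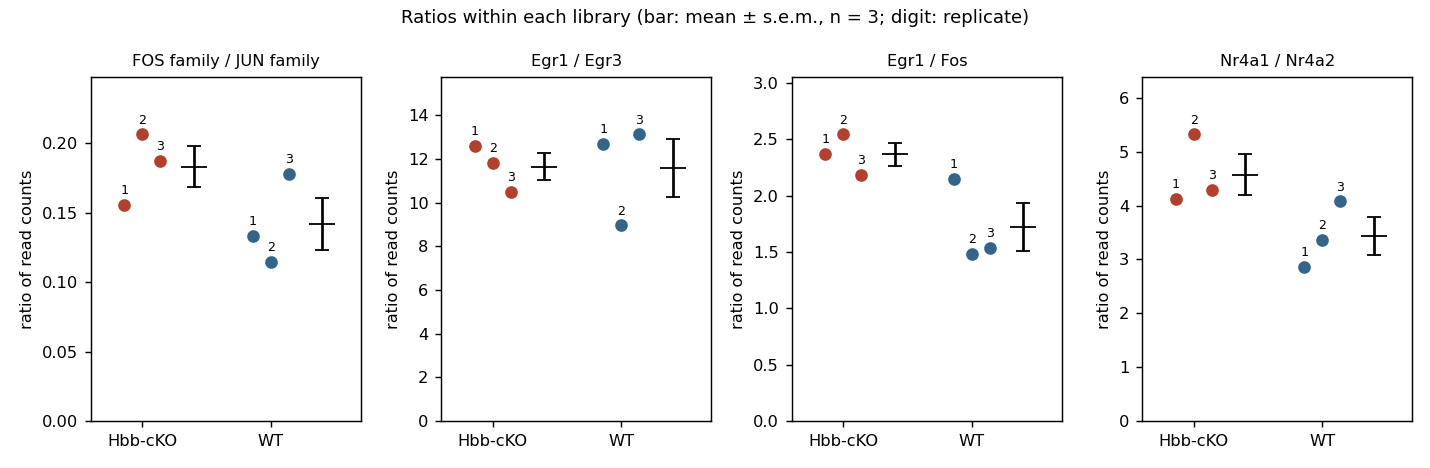
Ratio of read counts within each library for the summed FOS (*Fos*, *Fosb*, *Fosl2*) over JUN (*Jun*, *Junb*, *Jund*) families and for 3 pairs of factors, with *Hbb*-cKO left of WT. Points are libraries with their replicate numbers, and bars are mean ± s.e.m. of 3 libraries. *Egr1* to *Fos* was 2.19 to 2.54 in *Hbb*-cKO and 1.48 to 2.15 in WT.

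Other genes of the pathway were counted from fixed lists. Of the remaining family members, 5 of 8 were tested, and *Fosl1*, *Egr2* and *Egr4* were too low to test. None of the 5 had an unadjusted p under 0.05, and their median log2 FC was 0.10. *Nr4a3*, the third NR4A receptor, had 3.86, 7.42 and 5.002 CPM in *Hbb*-cKO, against 4.73, 3.89 and 2.71 CPM in WT (log2 FC 0.52, edgeR adjusted p = 0.607). *Batf3*, a leucine zipper factor of dendritic cells, and *Jdp2*, a JUN dimerization partner, had log2 FC of -0.39 and 0.10. *Atf3*, a stress-induced factor, averaged 23.7 CPM over *Hbb*-cKO libraries, against 23.8 CPM over WT libraries.

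Of 20 other immediate early genes, 10 had positive and 10 negative log2 fold changes, with a median of 0.02, and none passed over all genes. An unadjusted p under 0.05 was found for *Ccn1* and *Plk2* in the higher direction and for *Maff* in the lower direction, compared with 4.89% and 5.22% of all tested genes. *Ccn1*, also named *Cyr61*, a matrix protein induced by serum and load, had 159, 319 and 259 CPM in *Hbb*-cKO, against 137, 158 and 141 CPM in WT (log2 FC 0.76, edgeR adjusted p = 0.331). Its order among the *Hbb*-cKO libraries was that of *Fosb*. *Plk2*, a polo-like kinase, had a log2 FC of 0.34 (edgeR adjusted p = 0.317), and *Maff*, a small MAF factor, of -0.49 (edgeR adjusted p = 0.291). The list's median stands beside 0.37 for the 10 factors and -0.01 over all tested genes.

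Of 17 upstream kinases and factors, none had an unadjusted p under 0.05, and the median log2 FC was -0.01. The smallest p belonged to *Elk3*, an ETS partner of serum response factor (log2 FC 0.13), to *Srf* itself (0.11) and to *Mrtfb*, its coactivator (-0.29). Of 15 feedback inhibitors, which dephosphorylate MAP kinases, block receptor signalling, bind EGR factors or destroy AU-rich transcripts, 13 had positive values, with a median of 0.14, and 3 had an unadjusted p under 0.05, all higher, compared with 47.5% positive and 4.89% higher at that p over all tested genes. *Spry4*, an inhibitor of receptor tyrosine kinase signalling, had 26.3, 24.1 and 22.2 CPM in *Hbb*-cKO, against 19.9, 13.5 and 16.3 CPM in WT (log2 FC 0.55, edgeR adjusted p = 0.321). *Dusp6*, the ERK phosphatase, had 40.3, 41.8 and 40.2 CPM in *Hbb*-cKO, against 36.7, 30.2 and 30.9 CPM in WT (log2 FC 0.32, edgeR adjusted p = 0.395), and *Spry2* had a log2 FC of 0.29. In these 3 genes every *Hbb*-cKO library was above every WT library, as in 8.7% of all tested genes, but none passed over all genes. The lists, too, were chosen with earlier results of these data known.

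Of 11 AP-1 target genes, 10 were tested, none had an unadjusted p under 0.05, and the median was 0.04. *Plau*, the urokinase gene, *Spp1*, osteopontin, and *Mmp13*, the collagenase of hypertrophic cartilage, had log2 FC of 0.29, -0.55 and 0.23. Of 10 heat shock genes, which rise with stress of the tissue, 5 had positive and 5 negative values, with a median of -0.001. *Hspb1*, a small heat shock protein gene, had 126, 97.8 and 115 CPM in *Hbb*-cKO, against 141, 158 and 261 CPM in WT (log2 FC -0.72, edgeR adjusted p = 0.353), and *Dnaja1*, a cochaperone gene, and *Hspa8*, a constitutive chaperone gene, had log2 FC of 0.30 and -0.28.

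**Figure D5:**
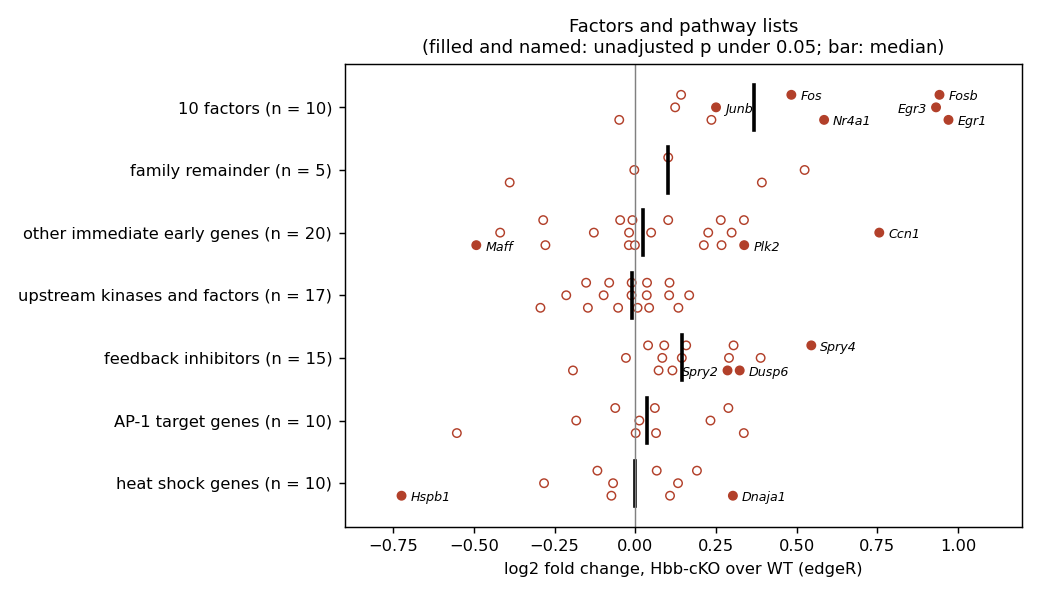
Log2 fold change (*Hbb*-cKO over WT) of the 10 factors and of the tested genes of each pathway list. Filled and named points had an unadjusted p under 0.05, and bars are medians. The median was 0.37 for the 10 factors, 0.14 for the feedback inhibitors and between -0.01 and 0.10 for the other lists.

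The genes whose profiles over the 6 libraries were nearest to 4 of the factors were found among 13051 genes by the root mean square difference of centred log2 CPM. *Egr1* was nearest to *Mki67*, the proliferation antigen gene (0.11), *Brip1*, a DNA helicase gene (0.12), and *Kif18b*, a mitotic kinesin gene (0.12), with log2 FC of 0.80, 0.99 and 0.75 (adjusted p = 0.0720, 0.156 and 0.116 in edgeR). *Fosb* was nearest to *Ccn1* (0.12), *Lipg*, an endothelial lipase gene (0.15), and *Fam184b* (0.21). The profile of *Fos* was nearest to those of *Mrpl48-ps* (0.06), *Ttk* (0.07), a spindle checkpoint kinase gene, and *Raly* (0.07). *Junb* was nearest to *Pwwp3a* (0.03), *Mmp17* (0.04) and *Usb1* (0.04). With 6 libraries, any gene with a like difference between the groups lies near, and these likenesses are descriptions.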

How the data were processed

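The deposited table holds raw read counts per gene in 6 libraries. According to the labels and the study's methods, libraries were made from polyA RNA with a TruSeq kit and sequenced on an Illumina HiSeq instrument. Tools credited to the submitters' notes are HISAT2 2.1.0 and StringTie, after CASAVA 1.8 and fastp 0.19.5, with edgeR, and the counts were deposited by the authors without normalization. Genome build and strandedness: not given in the sources used here. Of 55227 gene identifiers found in GENCODE M21 (GRCm38), 99.4% had the same position in the table.

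Counts were analysed with edgeR 4.0.16 in R 4.3.3 (filterByExpr by group with a minimum count of 10 and total of 15, TMM factors, robust quasi-likelihood fit), with Benjamini-Hochberg adjustment over 17175 genes and a threshold of 0.05. DESeq2 1.42.0 was an alternative. The fit was tested on simulated counts, in which the share of false calls among the calls exceeded the nominal level when some genes were changed. Intervals are 95% intervals of the fit, and counting errors cover counting alone. The study describes its in vivo experiments as biologically replicated and its RNA-seq samples as independent, but the labels tie no library to an animal, so part of the library-to-library spread behind the p-values may be technical. No pair of libraries agreed within sampling noise (chi-square per gene 22.2 to 61.0 over 15 pairs). Alternatives covered the test, scaling, filters, covariates, replicate number and leaving out each library, and scaling by library totals was added after seeing the data. Genes were named by rule: all 10 factors, up to 3 genes of each list with the smallest p, and the 3 nearest profiles of *Egr1*, *Fos*, *Fosb* and *Junb*. *Atf3*, the 3 untested family members and the overlapping genes were named after their values were seen. The factors and lists were chosen with earlier results of these data known. Of the listed symbols, 4 were matched through RefSeq synonyms. Centred profiles used log2 CPM with a prior count of 2 and a mean of at least 1.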

Additional observations from a re-analysis of the deposited data

How the results depend on the processing

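The log2 fold changes of *Egr1*, *Egr3*, *Fos*, *Fosb*, *Jun*, *Junb*, *Nr4a1* and *Nr4a2* kept their sign in all 16 alternatives, although *Nr4a2* (0.14) was 0.0002 without WT replicate 3, 0.04 without *Hbb*-cKO replicate 3 and 0.43 with the Y-linked covariate. The median of the 10 factors ran from 0.30 to 0.45. The number of factors past the threshold was 1, and became 3 with DESeq2, where *Fosb* (0.95) and *Egr3* (0.94) also passed, and 0 with the neutrophil score as a covariate, and 0 to 1 with single libraries left out. It was 0 without each *Hbb*-cKO library and without WT replicate 1. The number of all genes past it was 18, and became 249 with DESeq2, 60 without a filter on low counts, 0 with the neutrophil score, 48 with Y-linked expression as a covariate, and 1 to 39 with single libraries left out (6 without *Hbb*-cKO replicate 2, 2 without *Hbb*-cKO replicate 3, 1 without WT replicate 1 and 39 without WT replicate 3). *Fosl2* turned to -0.068 with Y-linked expression in the model, and *Jund* to 0.18 there and ran from -0.16 to 0.12 with single libraries left out, positive without WT replicate 2. The *Egr1* to *Egr3* log2 difference ran from -0.15 (without WT replicate 2) to 0.12 and was -0.04 without *Hbb*-cKO replicate 1. The cause of these changes was not tested. Dividing counts by exon length before summing moved none of the 4 ratios to the other sign. With the replicate number as a replicate block, 4 genes and 0 factors passed, and *Egr1* kept its value of 0.97 (edgeR adjusted p = 0.170). Correlations of deviations of same-numbered libraries were -0.03, -0.11 and -0.03, so the numbers gave no pairing. No ratio of a pair could pass at this number of libraries, and *Egr3*, with 77 to 236 counts, had the largest counting error.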
